A study of Mus musculus with 4 samples.

Results

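Arg1-high Car6/Olr1 macrophages were leukocytes of aged mouse gonadal fat that carried much Arg1 mRNA (arginase 1, which splits arginine into ornithine and urea) together with Car6 (a secreted carbonic anhydrase) and Olr1 (a scavenger receptor for oxidised lipoprotein). They numbered 567 of 14982 kept cell barcodes, with 114 in the library labelled CD45- Tom+, 180 in CD45- Tom-, 55 in CD45+ Tom+ and 218 in CD45+ Tom-. A barcode was a member with at least 10 Arg1 unique molecular identifiers (UMIs, which count captured mRNA molecules) per 10000 of its UMIs, at least 1 Car6 UMI, at least 2 UMIs of Car6 and Olr1 together, at least 1 UMI of the leukocyte gene Ptprc, at most 1 of the stromal gene Pdgfra and under 10 of the plasma cell gene Mzb1. Only barcodes with over 1000 and less than 7000 genes detected were kept, and only if mitochondrial transcripts took less than 8% of their UMIs. The members were thus chosen by measured values, and their levels of these genes are descriptions without a test.

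Non-fat cells of gonadal white fat (its stromal vascular fraction) came from 18-month-old male p16-CreERT2/R26-LSL-tdTomato mice, all of them given tamoxifen by intraperitoneal injection, so that cells with an active p16 promoter became red (Tom+) permanently. Digested tissue was stained for CD31 and CD45 and sorted, and each combination of CD45 and tdTomato gave a single 10x Genomics 3' library, with no replicate. The number of mice behind a library is not given in the sources used here, and Tom+ marks past p16 promoter activity in any cell type rather than in macrophages alone. The 4 libraries held 139397501, 110410319, 64083756 and 136459745 UMIs over 7815, 11255, 3429 and 11068 barcodes, with the pair labelled CD45- first, the pair labelled CD45+ second and Tom+ before Tom- within a pair. All values given for the 4 libraries follow that order. Their median depth per kept barcode was 18587 to 20241 UMIs.

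The CD45 labels did not separate leukocytes. Of the kept barcodes, 2069 of 4145, 1450 of 4038, 981 of 1981 and 1952 of 4818 met the leukocyte part of the rule, and adipose progenitors stood in both CD45+ libraries (158 and 1770 barcodes). Each pair is therefore named as labelled, and members of all 4 libraries were used. Both Tom- libraries shared 4394 barcode sequences and the other pairs 26 to 1134, but at most 21 were kept in both libraries of a pair, no member was a member in another library, and 2 members had a barcode kept elsewhere. Members were scored for doublets and not removed in the values below, and 30 of them were among the cells with the highest scores.

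Macrophages of a tissue combine cells settled there before or soon after birth with cells that arrive later as monocytes. Those of adipose tissue include perivascular cells that carry Lyve1, Cd163 and Mrc1, and lipid-laden cells that carry Gpnmb, Trem2 and Cd9 and clear the remains of fat cells. The serous fluid around the gonadal fat pad has macrophages of its own, and the large peritoneal macrophages among them depend on the transcription factor Gata6, which is induced by retinoic acid, and carry Icam2, F5, Prg4 and Itgam. Arginase 1 competes with nitric oxide synthase for arginine and is used as a mark of alternative activation.

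The sequences upstream of Olr1 and of Chil3 are shown because Olr1 chose the cells and Chil3 was among the genes that set the members apart from both other macrophage populations. Both are from RefSeq on GRCm38.p6, read 5′ to 3′ on the minus strand, and end at the base before the annotated start. The upstream window of Olr1 is chr6:129507166-129507415 and that of Chil3 is chr3:106167565-106167814. Capitals mark AGATAA, a motif bound by the factor family to which Gata6 belongs, or its reverse complement, and TGANTCA, which is the AP-1 motif.
Olr1: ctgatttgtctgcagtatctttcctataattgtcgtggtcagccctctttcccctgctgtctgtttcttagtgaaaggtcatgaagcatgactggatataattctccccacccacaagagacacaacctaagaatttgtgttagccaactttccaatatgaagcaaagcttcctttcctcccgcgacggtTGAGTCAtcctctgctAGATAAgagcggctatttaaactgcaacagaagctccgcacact
Chil3: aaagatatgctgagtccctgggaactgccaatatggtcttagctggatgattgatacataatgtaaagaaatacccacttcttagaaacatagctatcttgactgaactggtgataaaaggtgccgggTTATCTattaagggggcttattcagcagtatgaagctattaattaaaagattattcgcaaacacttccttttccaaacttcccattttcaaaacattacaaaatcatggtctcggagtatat
Olr1 held AGATAA at bases 44 to 39 before its start and TGAGTCA at bases 60 to 54, and Chil3 held TTATCT, the reverse complement of AGATAA, at bases 122 to 117. Over both strands, AGATAA stood in 9.99% of 32851 such windows and TGANTCA in 6.75%. Neither window held TTGCNNAA (a C/EBP motif, 9.56% of windows) or CACGTG (an E-box, 6.02%). A match is a description of these letters only. In GENCODE vM21 on mm10, Arg1 lies at chr10:24915221-24927484, Car6 at chr4:150187015-150201332, Olr1 at chr6:129485244-129507165 and Chil3 at chr3:106147554-106167564, all on the minus strand.

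Arg1 was a large part of these cells' mRNA. The median member held 63.9, 64.0, 76.5 and 67.3 Arg1 UMIs per 10000 in the 4 libraries, and the middle 80% of members reached from 17.5 to 123 over all libraries. Few barcodes lay near the threshold, since only 14, 18, 8 and 21 met every other part of the rule with less Arg1. The lowest member of each library had 11.7, 10.0, 15.2 and 10.3 per 10000, and the highest barcode just outside had 9.37, 8.22, 6.95 and 9.59. Members had a median of 3, 3, 4 and 3 Car6 UMIs and of 8, 6, 6 and 7 Olr1 UMIs, and 25, 47, 12 and 52 of them rested on a single Car6 UMI. In total 266, 334, 141 and 406 leukocyte barcodes passed the Arg1 threshold, of which 152, 149, 83 and 183 had no Car6 UMI. A Car6 count of 0 in a cell of this depth does not show that the cell lacked the mRNA.

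**Figure D1:**
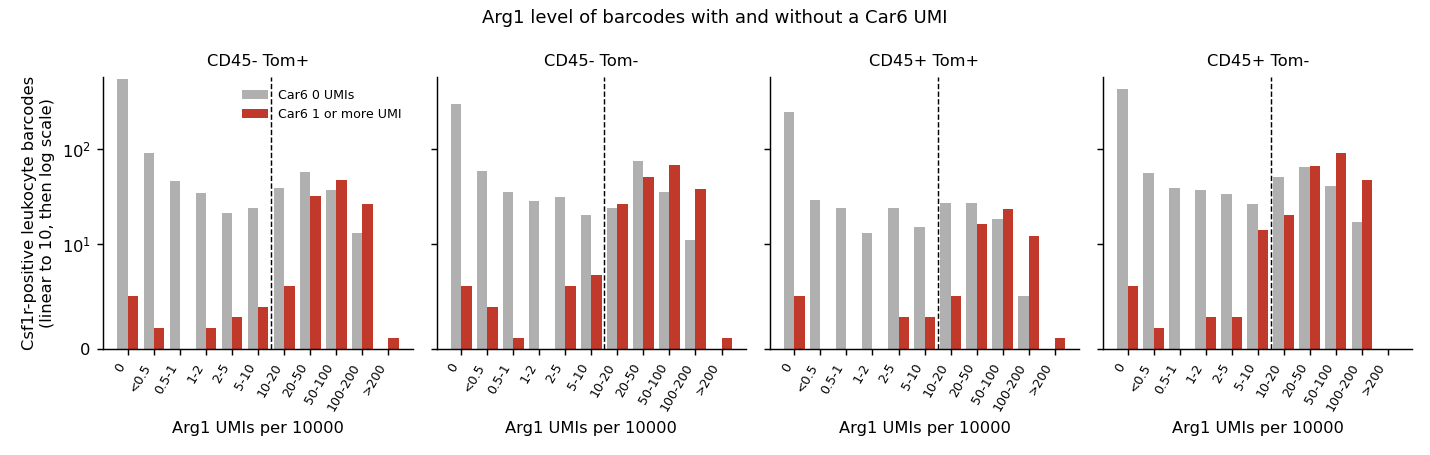
Number of leukocyte barcodes with a Csf1r UMI (y axis, linear up to 10 and logarithmic above) by their Arg1 UMIs per 10000 (x axis), 1 panel per library, in grey without and in red with a Car6 UMI. Barcodes with Car6 lie mostly to the right of the dashed threshold at 10 per 10000.

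Members made up 2.75%, 4.46%, 2.78% and 4.52% of kept barcodes, with exact 95% binomial intervals of 2.27 to 3.29%, 3.84 to 5.14%, 2.10 to 3.60% and 3.96 to 5.15%. The intervals of the Tom+ libraries lay below those of the Tom- libraries in both pairs. Against barcodes that carried Csf1r, the receptor of the macrophage growth factor, the members with a Csf1r UMI were 10.8%, 21.7%, 11.2% and 20.8%. These shares depend on what each sort let through, the intervals cover counting error only, and 1 library stood for each group, so the difference was not tested.

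Across the sums of their UMIs, members had the genes of macrophages. Csf1r was at 478, 489, 429 and 456 CPM (UMIs of a gene scaled to a fixed total), Adgre1 (F4/80) at 442, 325, 369 and 320 and Lyz2 (lysozyme) at 9921, 11186, 8357 and 9266. The 12 macrophage markers together, 5 of which served in choosing populations, reached 16542 to 19222 CPM, against 238 to 320 in progenitor barcodes. Itgam (CD11b, chr7:128062640-128118491) was at 1170, 1050, 1062 and 985 CPM in members, and at 199 to 266 in the lipid-associated macrophages described next. Members were also close in depth to each other, with median UMIs of 22787.5, 18332, 20317 and 21089 per cell. Markers of other cells were low: the summed dendritic cell list stood at 1.7 to 3.6 CPM, the eosinophil list at 1.9 to 6.9 with Epx at 0, the T and NK cell list at 3.5 to 29.1 with Klrb1c at 0, and the mesothelial list at 3.5 to 21.5. Higher sums were seen for the adipose progenitor list (85.0 to 474 CPM), the neutrophil list (95.4 to 182), the endothelial list (33.8 to 114) and the mast cell list (20.7 to 96.9), and the mural list stood at 7.2 to 17.3. The plasma cell list was at 12468, 967, 11261 and 797 CPM.

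To place the members, 3 other leukocyte populations were chosen by marker genes among non-members. Resident macrophages carried Adgre1 and at least 2 UMIs of Vsig4, Marco and Timd4 with under 3 of Gpnmb, lipid-associated macrophages carried Adgre1 and at least 3 UMIs of Gpnmb, and monocytes carried Ccr2 and at least 2 UMIs of Ly6c2 with little C1q. They numbered 154, 778 and 115 cells. Counts were summed per population and library, and edgeR's quasi-likelihood test with the library as a block was fitted on all 10811 genes that passed the filter, with Benjamini-Hochberg adjustment over all of them. A gene was called at an adjusted p under 0.05 and at least a 2-fold change, and the 18 genes used to choose the populations were left out of the calls. Sums of under 20 cells were not fitted, which left 3 libraries for resident macrophages (all but CD45- Tom-) and the 2 Tom- libraries for monocytes. Libraries stood in for replicates, and members were chosen on Arg1 counts of the same cells, so genes that vary with Arg1 from cell to cell had to differ to some degree.

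Against resident macrophages, 237 genes (2.19%) were higher and 387 (3.58%) lower in members. Against lipid-associated macrophages, 863 (7.98%) were higher and 834 (7.71%) lower, and against monocytes 1019 (9.43%) and 862 (7.97%). Leaving out either Tom- library left a single monocyte sum, so no count against monocytes is given for these fits. The median log2 difference over all genes was -0.00, -0.01 and 0.06.

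The list of large peritoneal macrophage genes was higher in members. It held 14 genes, of which Timd4 was used to choose cells and the other 13 were tested. Of these 13 genes, 8 were called higher than in resident macrophages (median log2 difference 2.26), all 13 were higher than in lipid-associated macrophages (4.21), and 7 of 13 were higher than in monocytes (3.42). Among members the list rose with Arg1, by which they were chosen (Spearman's rho 0.438, 0.451, 0.447 and 0.352). The part of that choice in these differences was not tested. The summed list was at 681, 331, 914 and 506 CPM in members, 195 to 427 in resident and 62.2 to 111 in lipid-associated macrophages. Progenitor barcodes reached 513 to 642 CPM on the same list, since Gata6, Ltbp1, Prg4, Tgfb2, Garnl3 and Serpinb2 are also stromal or mesothelial genes, whereas Icam2, Naip1, F5, Rarb and Itga6 were near 0 in them. The progenitor marker list itself was at 147, 441, 85.0 and 474 CPM in members and at 21425 to 28531 in progenitor barcodes, and members lacked more than 1 Pdgfra UMI by rule.

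Gata6, the transcription factor that sets the large peritoneal identity, was at 37.4, 15.6, 42.5 and 24.3 CPM in members. Lipid-associated macrophages had 2.79, 3.01, 0.448 and 2.48 CPM and resident macrophages 10.6, 26.3, 3.22 and 5.35, so members overlapped the resident range only through the library with 17 resident cells. The log2 difference was 3.62 from lipid-associated (SE 0.33, edgeR adjusted p = 1.09e-07) and 2.23 from resident macrophages (SE 0.49, edgeR adjusted p = 0.00482). The resident call was lost without the library labelled CD45- Tom+ (log2 2.89). With resident cells above the Arg1 threshold left out, 34, 9, 18 and 9 resident cells remained in the 4 libraries. Only the sum of CD45- Tom+ could then be fitted, and the log2 difference from it was 0.76. Of cells thinned to 5000 UMIs, 10.6%, 5.06%, 12.7% and 9.72% of members had a Gata6 UMI, against 0.952%, 0.775%, 0% and 1.58% of lipid-associated macrophages and 43.8 to 57.4% of progenitor barcodes. Unthinned, the members' shares were 32.5%, 16.1%, 34.5% and 24.8%.

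Genes of the list that were near absent from progenitors moved the same way. Icam2 (an adhesion molecule) was at 42.1, 17.3, 38.2 and 34.8 CPM in members and at 1.61 to 6.57 in resident macrophages, a log2 difference of 3.07 (SE 0.51, edgeR adjusted p = 0.000584). F5 (coagulation factor V) was at 28.8, 9.74, 25.2 and 20.03 CPM and Itga6 (integrin alpha 6) at 305, 164, 409 and 197, with log2 differences of 3.87 (adjusted p = 0.00147) and 2.71 (adjusted p = 4.82e-05) from resident macrophages. All 4 member sums lay above all resident sums for Icam2 and Itga6, while F5 in CD45- Tom- (9.74) stood just under the 9.86 of the resident cells of that library. Rarb, a retinoic acid receptor, was at 28.1, 22.3, 38.2 and 22.4 CPM, with a log2 difference of 1.67 from resident (adjusted p = 0.00171) and 4.67 from lipid-associated macrophages. Naip1 (of a receptor family that senses bacterial proteins, whose reads may be shared with close paralogs) was at 44.3, 31.2, 44.2 and 27.8 CPM and missed the threshold against resident macrophages (log2 1.64, adjusted p = 0.0757), though it was called without CD45- Tom- (1.67) or CD45+ Tom- (2.01). So did Alox15 (adjusted p = 0.0553), a lipoxygenase of peritoneal macrophages, and Ltbp1, Tgfb2 and Garnl3.

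**Figure D2:**
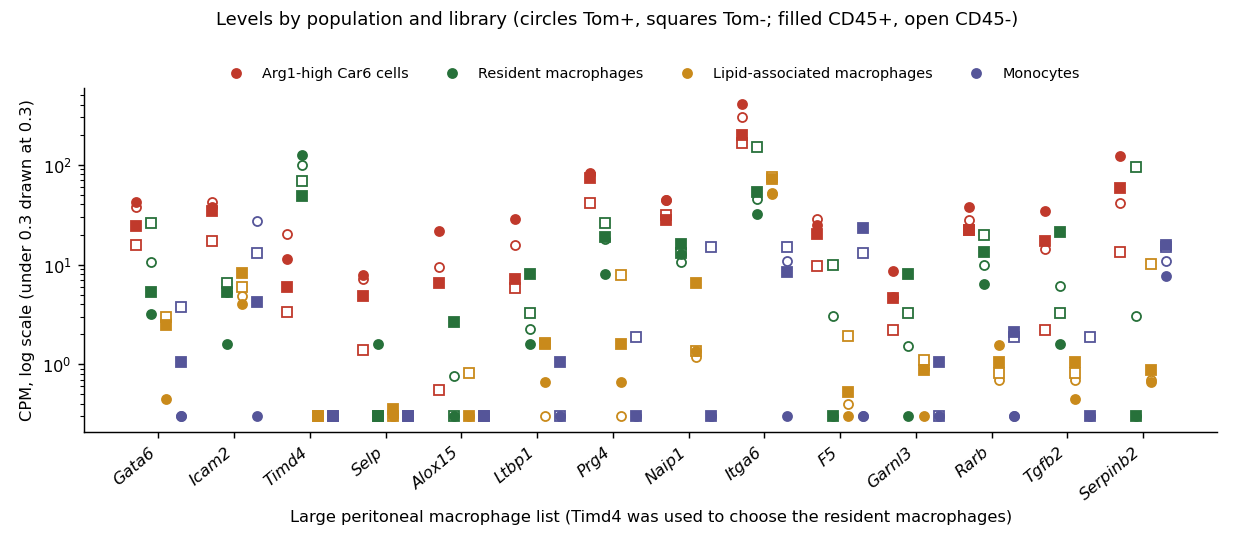
CPM (y axis, logarithmic, with values under 0.3 drawn at 0.3) of the 14 genes of the large peritoneal macrophage list (x axis) in each library, sums of under 20 cells included, with populations in colour, circles for Tom+ and squares for Tom-, filled for CD45+ and open for CD45-. Members lie above lipid-associated macrophages for every listed gene but Alox15, whose ranges overlap, overlap resident macrophages for genes such as Garnl3 and Tgfb2, and lie below them for Timd4.

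Prg4 (lubricin, chr1:150449412-150466165) and Serpinb2 (plasminogen activator inhibitor 2, chr1:107511423-107535478) were higher with less certainty. Prg4 was at 82.8, 41.5, 81.5 and 74.4 CPM in members, 8.06 to 26.3 in resident and 0.299 to 7.94 in lipid-associated macrophages, with no overlap. Its log2 difference from resident macrophages was 2.26 (SE 0.57, edgeR adjusted p = 0.0133), a call that was lost in DESeq2 (2.17) and without any of the 3 resident libraries (1.99 to 2.51). Without Arg1-high resident cells, which left a single resident sum, the difference was 3.88. Progenitors carried 53.8 to 78.7 CPM of Prg4. Serpinb2 stood at 41.4, 13.4, 122 and 58.4 CPM, but only 15.8%, 6.11%, 14.5% and 12.4% of members had a UMI of it, and its log2 difference of 5.00 from resident macrophages (SE 1.26, edgeR adjusted p = 0.0126) was not called without any 1 resident library (3.98 to 10.59). Against the single resident sum left without Arg1-high cells, the difference was 4.47. The 17 resident cells of CD45- Tom-, which were not fitted, had 95.3 CPM of Serpinb2, above the 13.4 of the members there. Cd5l, a secreted scavenger protein of peritoneal and other resident macrophages that was chosen after its values were seen, was on average at 490 CPM and was 1.62 higher on the log2 scale than in resident and 2.87 higher than in lipid-associated macrophages.

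Other genes set the members apart as well. In all, 58 genes of at least 50 CPM were called higher than in both macrophage populations, and the 15 with the largest smaller difference were named. Arg1-high barcodes without Car6 were not a population of this fit. Some of these genes were also high in them, as given under other observations. Chil3 (Ym1, a chitinase-like lectin whose reads may be shared with its near copy Chil4) was at 432, 274, 429 and 359 CPM in members, 6.81 to 42.7 in resident and 2.01 to 39.1 in lipid-associated macrophages, which did not overlap. The log2 differences were 4.72 (SE 0.68, edgeR adjusted p = 0.000149) and 4.64 (SE 0.42, adjusted p = 1.08e-07). Monocytes of the Tom- libraries had 1560 and 1103 CPM (log2 -1.85), a call that was lost in DESeq2 (-1.82). Without CD45- Tom-, which left a single monocyte sum, the log2 difference was -0.93. Thinned to 5000 UMIs, 38.9%, 34.3%, 49.1% and 39.8% of members had a Chil3 UMI (unthinned 54.4%, 52.8%, 58.2% and 57.3%), against 1.40 to 6.84% of lipid-associated macrophages and at most 0.75% of progenitors.

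Slpi (secretory leukocyte protease inhibitor, chr2:164354070-164389095) was at 4292, 1237, 3172 and 1549 CPM in members. Lipid-associated macrophages had 56.4 to 184 CPM, and resident macrophages 96.7 to 348 apart from 2697 in the 17 cells of CD45- Tom-. Its log2 differences were 3.59 (SE 0.43, edgeR adjusted p = 2.32e-05) and 4.45 (adjusted p = 4.52e-08). It was uneven over cells: the single richest member gave 30.8%, 12.0%, 28.3% and 13.3% of the Slpi UMIs, and without that cell the sums were 3023, 1096, 2327 and 1354 CPM. The median member had 4.58, 1.23, 5.22 and 1.56 Slpi UMIs per 10000.

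Spp1 (osteopontin, chr5:104435118-104441050), a gene of the lipid-associated list, was at 7311, 4562, 5698 and 4761 CPM. Resident macrophages had 381 to 1655 and lipid-associated macrophages 1293 to 2367, so members were higher than both in every library, by 2.42 (edgeR adjusted p = 1.94e-06) and 1.70 (adjusted p = 1.31e-06) on the log2 scale. Trem1, which amplifies inflammatory signals, was at 113, 128, 131 and 126 CPM against 3.09 to 5.31 in lipid-associated and 12.9 to 55.8 in resident macrophages (log2 4.79 and 2.12). Il1b (interleukin 1 beta) was at 189, 218, 351 and 343 CPM, higher than in both macrophage populations (2.20 and 2.27) and lower than in monocytes (-1.70, a call lost in DESeq2). Against the single monocyte sum left without CD45- Tom-, the Il1b difference was -1.03. Thbs1 (thrombospondin 1) and F10 (coagulation factor X) were 2.94 and 3.40 higher than in resident macrophages and 2.04 and 2.20 higher than in lipid-associated ones. Thbs1 was lower than in monocytes (-2.31), and progenitor barcodes had 962 to 1009 CPM of it against 435 to 580 in members. F10 (0.18), Trem1 (0.52), Serpinb1a (1.16) and Hp (-1.01) were not called against monocytes. The other named genes were Klk8 (a serine protease, 2.95 and 4.68), Cd24a (a surface glycoprotein, 2.71 and 4.24), AA467197 (2.53 and 4.14), Serpinb1a (a neutrophil protease inhibitor, 2.41 and 2.45), Lrrk2 (a kinase, 2.33 and 3.26), Hp (haptoglobin, 2.25 and 3.09) and Mvd (an enzyme of sterol synthesis, 2.10 and 2.42). In the 17 resident cells of CD45- Tom-, which were not fitted, Il1b (253 CPM) and Serpinb1a (29.6) stood above the members of that library (218 and 21.7). Mvd varied little, at 52.6, 57.1, 54.6 and 52.1 CPM in members and 8.67 to 13.6 in the other macrophages. The Hp call against resident macrophages was lost with high doublet scores left out (1.92) and without the library labelled CD45- Tom+ (1.96), and that of Serpinb1a without the library block (1.88). Against the single resident sum left without Arg1-high cells, the log2 differences of Hp and Il1b were 3.10 and 1.47.

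The genes of resident adipose macrophages were lower. All 10 tested members of that list were called lower than in resident macrophages (median log2 difference -2.84), and 6 of 10 were lower and 1 higher than in lipid-associated macrophages (-1.34). Cd163, the haptoglobin scavenger receptor, was at 3.60, 3.62, 2.60 and 0.844 CPM in members and 18.7 to 125 in resident macrophages (log2 -4.85). Lyve1, a hyaluronan receptor, was at 107, 19.5, 41.6 and 31.8 CPM against 194 to 931 (log2 -3.25), and was the list member higher than in lipid-associated macrophages (1.45). Mrc1, the mannose receptor, stood at 134, 78.2, 92.8 and 92.8 CPM against 486 to 849 in resident and 364 to 458 in lipid-associated macrophages. F13a1 (-3.60), Gas6 (-2.99) and Folr2 (-2.48) were lower than in resident macrophages as well. Vsig4, Marco and Timd4 chose the resident cells, and members had Marco at 166, 71.3, 154 and 257 CPM and Timd4 at 20.2, 3.34, 11.3 and 5.90.

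In all, 70 genes of at least 50 CPM were lower than in both macrophage populations. Ccl8, a monocyte-attracting chemokine, was at 20.5, 3.90, 19.1 and 4.85 CPM in members, 85.6 to 781 in resident and 47.1 to 145 in lipid-associated macrophages, with log2 differences of -5.04 (edgeR adjusted p = 3.37e-08) and -3.17. Selenop, a secreted selenium carrier, was at 377, 259, 595 and 342 CPM against 1400 to 3577 and 3406 to 4088 (-2.69 and -3.39). Ms4a7, a membrane protein of tissue macrophages, was at 49.3, 39.2, 58.1 and 23.8 CPM against 217 to 246 and 652 to 843. Prostaglandin enzymes were among the lower genes, with Hpgds (-2.79 and -4.04) and Hpgd (-3.12 and -2.51). Ms4a6b (-3.20 and -3.56), Adcy3 (an adenylate cyclase, -3.01 and -3.81), Slco2b1 (a transporter, -2.82 and -3.44), Cadm1 (an adhesion molecule, -2.81 and -4.48) and Pdgfc (a growth factor, -3.81 and -2.61) complete the 10 named.

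Members shared part of the lipid-associated list. Of its 9 tested genes, 2 were higher than in resident macrophages (Spp1 and Cd9), and 6 were lower and 1 higher than in lipid-associated macrophages. Trem2, a lipid receptor, was at 493, 470, 420 and 458 CPM in members and 476 to 601 in resident macrophages, and at 1398 to 1528 in lipid-associated ones (log2 -1.71). Ctsk (cathepsin K, -3.25), Atp6v0d2 (a proton pump subunit, -3.12) and Fabp5 (a fatty acid carrier, -2.49) were lower than in lipid-associated macrophages. The monocyte list was intermediate, with 3 of 7 genes higher than in resident macrophages, 5 of 7 higher than in lipid-associated ones and 5 of 7 lower than in monocytes. Chil3 and Hp, named above, belong to this list and were among those higher than in each macrophage population. Plac8 was at 1.73 to 22.1 CPM in members and at 792 to 2499 in monocytes (log2 -7.52), whereas Vcan (versican) was at 14.8, 47.0, 39.0 and 50.2 CPM, 1.41 higher than in resident macrophages and 2.13 lower than in monocytes on the log2 scale. Small peritoneal macrophage genes were not raised: 3 of 6 were lower than in each macrophage population.

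Arginine handling differed by step. Slc7a2 (the CAT2 arginine importer, chr8:40862396-40922308) was at 985, 669, 1147 and 602 CPM in members, 245 to 457 in resident and 16.5 to 24.1 in lipid-associated macrophages, with log2 differences of 1.32 (SE 0.23, edgeR adjusted p = 0.000858) and 5.27 (adjusted p = 2.62e-11). Members and the other populations did not overlap. Ass1 (argininosuccinate synthase, which remakes arginine from citrulline) was at 77.8, 63.2, 52.0 and 63.9 CPM against 1.57 to 11.2 in lipid-associated macrophages (log2 3.30), and its difference from resident macrophages, 0.74, was not called (edgeR adjusted p = 0.156). Against the single resident sum left without Arg1-high cells, the difference was 2.77. Odc1, which turns ornithine into polyamines, was at 82.8, 67.1, 107 and 65.0 CPM, with log2 differences of -0.04 and -0.35. Nos2, the competing nitric oxide synthase, was at 0, 0.557, 0 and 1.90 CPM. Arg1 itself was at 7397, 6833, 7233 and 6663 CPM by rule, and resident macrophages, which the rule left free in Arg1, had 3412, 1311, 2257 and 3110. Of 6 carbonic anhydrases tested, 3 were higher than in lipid-associated macrophages, namely Car12 (5.16) and Car4 (2.83), at only 1.05 to 7.81 CPM in members, and Car5b (1.70), at 15.6 to 20.2, and Car9 was lower (-1.46). Of 11 tested genes of alternative activation, 1 was higher (Chil3) and 5 were lower (Mrc1, Cd163, Retnla, Clec10a and Il10) than in resident macrophages, with a median log2 difference of -1.81, and 2 were higher (Chil3 and Ccl24) and 2 lower (Mrc1 and Clec10a) than in lipid-associated macrophages.

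Glycolysis and hypoxia response genes were partly raised, with 7 of 20 higher and 2 lower than in resident macrophages and 6 higher and 1 lower than in lipid-associated ones. Egln3, an oxygen-sensing hydroxylase, was at 55.4, 23.1, 35.6 and 23.8 CPM against at most 6.57 and 2.30 (log2 4.30, edgeR adjusted p = 6.74e-05, and 4.35, adjusted p = 6.05e-09). Slc2a1, the glucose importer, was at 40.7, 54.8, 44.2 and 42.0 CPM (1.56 and 1.08), and Vegfa, the angiogenic factor, at 143, 177, 125 and 151 (1.81 and 0.75). Pfkfb3, a glycolytic regulator, was lower than in both (-1.57 and -1.15). Coagulation genes were split in the same way, with 5 of 15 higher and 2 lower than in resident macrophages: F7 (factor VII) was at 195, 176, 144 and 192 CPM against 0 to 16.1 (log2 4.56, adjusted p = 1.45e-07), while F13a1 and Gas6 were lower.

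MHC class II genes, which present antigen to T cells, were lower than in lipid-associated macrophages and monocytes for all 7 genes tested, and for 3 of 7 than in resident macrophages. Cd74 was at 410, 765, 746 and 780 CPM against 1905 to 2856 in lipid-associated macrophages (log2 -1.90), and H2-Aa at 217, 411, 318 and 441 against 908 to 1441. From resident macrophages H2-Aa differed by -0.94, under 2-fold. Interferon response genes were lower than in lipid-associated macrophages for 9 of 12, with Isg15 at 1.73 to 2.78 CPM against 14.0 to 20.4 (-2.92). Among chemokines, 8 of 20 were lower than in resident macrophages, including Ccl2 (-3.05), Ccl7 (-3.33) and Cxcl13 (-4.32), while Cxcl14 was at 118, 196, 115 and 190 CPM and higher than in both (1.17 and 1.90). Il6 was at 56.5, 35.9, 73.7 and 63.1 CPM and higher than in both (1.67 and 3.42). Among transcription factors, Maf, of resident macrophages, was at 88.5 to 116 CPM against 332 to 479 and 216 to 239 (-2.00 and -1.16), and Bhlhe40 (1.93) and Hif1a (1.77) were higher than in lipid-associated macrophages. Complement C6 was at 0 to 0.557 CPM in members and 10.7 to 70.9 in resident macrophages. Cell cycle genes were lower than in lipid-associated macrophages for 6 of 12, and 10.5%, 8.89%, 7.27% and 12.4% of members had at least 3 UMIs of Mki67, Top2a, Birc5 and Cdk1 against 18.7%, 16.3%, 21.0% and 17.9% of the deeper lipid-associated cells.

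**Figure D3:**
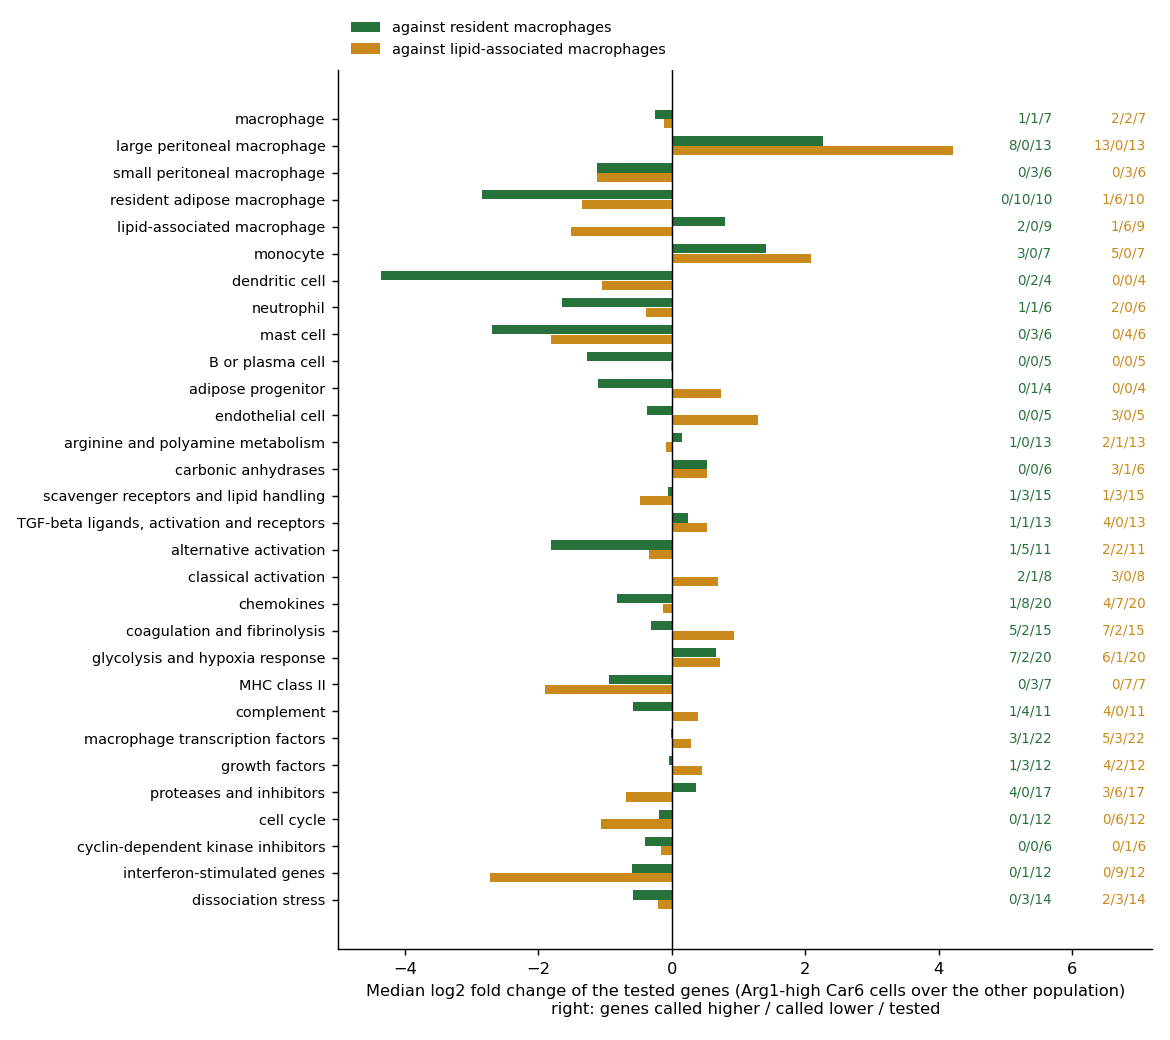
Median log2 difference between members and resident (green) or lipid-associated macrophages (orange) over the tested genes of each list, with the number of genes called higher and lower out of those tested at the right. The large peritoneal macrophage list has medians of 2.26 and 4.21, and the resident adipose list of -2.84 and -1.34.

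The members were not uniform. Within each library they were ordered by the large peritoneal list per cell, and the 25% with the lowest and the 25% with the highest level (28, 45, 13 and 54 cells each) were set side by side as a low and a high set. As this ordering used measured values of the same cells, what follows is a description without a test. The list itself rose from 54.6, 25.2, 47.7 and 21.4 CPM to 1793, 911, 2619 and 1574. Slpi went from 228, 113, 561 and 221 CPM to 12288, 3676, 8123 and 5004, and Cd5l from 93.2, 30.9, 315 and 1.78 to 1271, 509, 1633 and 1210. Arg1 was at 4869, 4514, 4230 and 4582 CPM in the low and at 10010, 10072, 10081 and 8534 in the high set, and Spp1 and Itgam were higher in the high set in all 4 libraries too. In the other direction, the MHC class II list was at 1691, 1862, 2832 and 2533 CPM in the low and at 365, 352, 308 and 542 in the high set. Ccr2, the receptor by which monocytes enter tissue, was at 97.99, 181, 180 and 260 CPM in the low and at 2.62, 19.1, 3.15 and 37.5 in the high set, while the summed monocyte list went the other way, from 479, 582, 844 and 718 CPM to 1043, 977, 1073 and 775. Most of that sum was Chil3 and Hp. Over all members the list was at 725, 721, 801 and 798 CPM, Chil3 at 432, 274, 429 and 359 and Hp at 159, 225, 179 and 165. Gpnmb was lower in the high set in all 4 libraries, but the summed lipid-associated list, which holds Spp1, was at 9784, 9775, 5833 and 9568 CPM in the low and at 18616, 11217, 12300 and 11373 in the high set. Vsig4 had no common direction, with 3.21, 80.2, 459 and 4.46 CPM against 472, 434, 183 and 124.

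The high set was the deeper in 3 libraries, with median UMIs of 19728.5, 18160, 20062 and 19379.5 in the low and 23725.5, 17850, 25298 and 22382 in the high set. The part of depth in these differences was not tested. Over all 114, 180, 55 and 218 members, Spearman's rho between the list and Slpi was 0.656, 0.432, 0.611 and 0.471, that with Cd5l 0.506, 0.497, 0.477 and 0.574, and that with Ccr2 -0.228, -0.181, -0.241 and -0.258. With the summed monocyte list, which holds Ccr2, Chil3 and Hp, it was 0.12, 0.10, 0.19 and -0.08. The cells of a library share its preparation, and the list's rho with total UMIs was 0.0661 to 0.175. Among the rule's own genes, Arg1 had a rho of 0.133 to 0.268 with Car6 and 0.216 to 0.416 with Olr1.

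**Figure D4:**
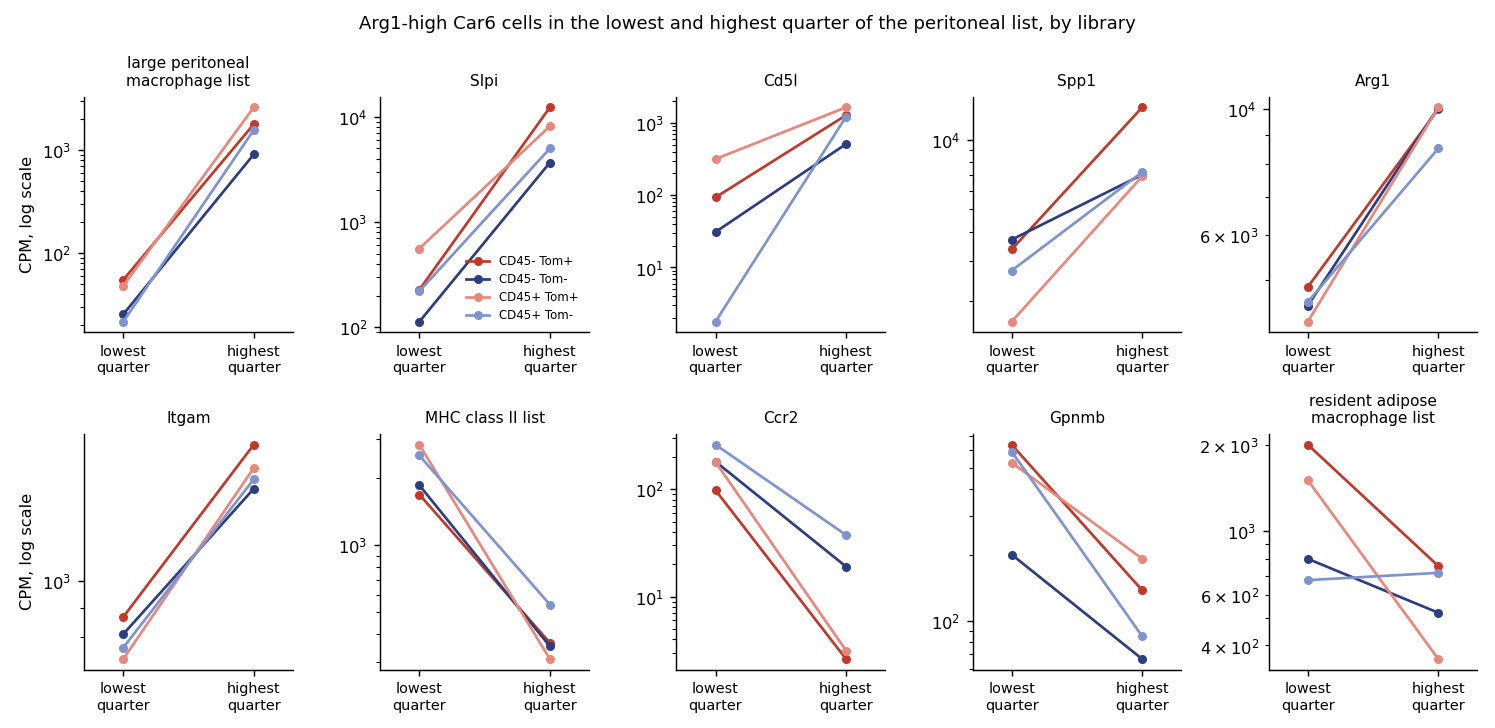
CPM (y axis, logarithmic) of 10 genes or lists in the 25% of members with the lowest and the 25% with the highest level of the large peritoneal macrophage list, 1 line per library. Slpi, Cd5l and Arg1 rise and MHC class II genes and Ccr2 fall from the low to the high set in all 4 libraries.

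Tom+ and Tom- members were compared within each CD45 label, with 1 library a side, so the log2 ratios have no test and carry exact 95% intervals for counting error only. The reporter followed the labels: tdTomato was at 786 and 20.04 CPM in the members of the pair labelled CD45- and at 737 and 23.6 in the pair labelled CD45+. Cdkn2a, the p16 gene itself, was at 10.4, 3.34, 4.34 and 2.11 CPM, with log2 ratios of 1.64 (0.63 to 2.75) and 1.04 (-0.86 to 2.72), and the second interval spans 0. Few genes differed by 2-fold. Of 5709 genes averaging 20 CPM or more in the pair labelled CD45-, 44 (0.771%) were higher and 19 (0.333%) lower in Tom+, and of 5723 in the pair labelled CD45+, 44 (0.769%) and 46 (0.804%). In both pairs at once, 15 of 5516 genes (0.272%) were higher and 10 (0.181%) lower. Arg1 differed little, with log2 ratios of 0.11 and 0.12.

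A test over both pairs was added after the data were seen, with edgeR's quasi-likelihood fit on the members' sums of all 4 libraries and the CD45 label as a block. Of 9933 genes tested, 59 (0.594%) were higher and 55 (0.554%) lower in Tom+ at an adjusted p under 0.05 and at least 2-fold. The fit has 1 residual degree of freedom and takes both pairs as repeats of the same comparison, although the CD45 labels did not separate leukocytes. In lipid-associated macrophages the same fit called 71 and 50 genes. All 18 genes named next were called in it, which adds nothing independent because the same ratios chose them.

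Of the 15 higher genes, among which tdTomato was not counted, 5 were immunoglobulin or J chain genes. After these and the other genes left out of naming, Mzb1 among them, 8 were left. Igkc, the immunoglobulin light chain, was at 11168, 855, 10171 and 703 CPM in members and at 10873, 721, 10739 and 540 in lipid-associated macrophages. The whole plasma cell list moved alike, with medians of 3.62 and 3.70 in members and 3.78 and 4.31 in lipid-associated macrophages. Ly6d, a lymphocyte surface antigen, was at 36.4, 3.90, 48.6 and 3.37 CPM in members and 45.9, 5.20, 43.0 and 3.54 in lipid-associated macrophages, and Cma1, a mast cell protease, at 37.8, 12.8, 32.1 and 8.22 against 365, 8.48, 76.8 and 4.25. Both thus stood higher in Tom+ in both populations, and the source of these UMIs was not tested.

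The other 6 genes had mixed values in lipid-associated macrophages of the same libraries. Fgfr1, a fibroblast growth factor receptor, was at 140 and 52.3 CPM in CD45- Tom+ and Tom- and at 152 and 71.7 in the other pair, log2 ratios of 1.42 (1.17 to 1.68) and 1.08 (0.81 to 1.35), with 0.16 and 0.39 in lipid-associated macrophages. Slpi had ratios of 1.80 (1.75 to 1.85) and 1.03 (0.98 to 1.09), with 0.02 and -1.70 in lipid-associated macrophages. By the Slpi sums given above without the richest member of each library, both ratios were smaller and the second was under 2-fold. The Slpi ratio in the pair labelled CD45- was 1.25 with high doublet scores left out, and that in the pair labelled CD45+ was 0.96, under 2-fold, with an Arg1 threshold of 20 per 10000. Thinned to 5000 UMIs 73.5%, 51.7%, 80.0% and 56.5% of members had a Slpi UMI (unthinned 94.7%, 71.7%, 94.5% and 76.6%), against 32.1%, 18.6%, 22.4% and 13.2% of lipid-associated macrophages and 49.2%, 22.5%, 43.9% and 20.8% of progenitors. Serpinb2 had ratios of 1.63 (1.13 to 2.15) and 1.07 (0.76 to 1.36), the second being 0.73 with each cell weighed the same. Serpinb1a was higher by 2.03 (1.66 to 2.42) and 1.25 (0.87 to 1.61), with 2.14 and -0.10 in lipid-associated macrophages. Il10, an anti-inflammatory cytokine, was at 42.1, 15.3, 28.6 and 11.8 CPM, but 1 cell held 63.6% of its UMIs in CD45+ Tom+. Likewise 1 cell held 51.2% of those of Klk9, a serine protease, in the same library. Il10 was also higher in Tom+ outside the members, with ratios of 1.01 and 0.91 in lipid-associated macrophages. Over all kept barcodes that were not members Il10 was at 117, 13.2, 111 and 13.6 CPM. The source of the members' Il10 UMIs was not tested.

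The large peritoneal macrophage genes had positive ratios. In the fit over both pairs, 7 of the 14 genes of the list were called higher in Tom+ (Gata6, Timd4, Alox15, Ltbp1, Itga6, Tgfb2 and Serpinb2) and the other 7 were not called, with a median log2 difference of 1.07 over the list and -0.0011 over all genes. The list holds rare mRNAs, such as Alox15 with 26, 2, 25 and 31 UMIs in the 4 sums. Gata6 had log2 ratios of 1.26 (0.78 to 1.76) and 0.81 (0.30 to 1.30), and Itga6 of 0.89 (0.74 to 1.04) and 1.05 (0.89 to 1.22), while Itga6 had -0.57 and -0.46 in lipid-associated macrophages. Progenitor barcodes, which also carry Gata6, had 261.8, 191.5, 299.3 and 180.6 CPM of it, higher in Tom+ as well. The median member had 2.77, 1.69, 2.88 and 1.65 UMIs of the list per 10000, and Tom+ and Tom- members overlapped, since the 25th to 75th percentiles were 1.24 to 8.58 and 0.573 to 3.46 in the pair labelled CD45-. Among other lists, MHC class II genes had medians of -0.83 and -0.53, with -0.47 and -0.63 in lipid-associated macrophages, and glycolysis genes -0.18 and -0.13.

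The 10 lower genes were mostly of extracellular matrix. Col3a1 (a collagen) was at 21.6, 96.3, 30.4 and 137 CPM and Dcn (decorin) at 98.3, 242, 26.9 and 191, and Col1a1, Col1a2, Mgp, Lum, Igfbp7 and Sparc were lower as well, with log2 ratios of these 8 genes between -1.30 and -3.10. With high doublet scores left out, the ratios of Col1a1, Col1a2, Mgp and Sparc in the pair labelled CD45+ were -1.38, -1.74, -1.94 and -0.29, and those of Sparc and Dcn in the pair labelled CD45- were -2.25 and -2.00, against -1.63 and -1.30 with these cells kept. With an Arg1 threshold of 20 per 10000 the ratio of Dcn in the pair labelled CD45- was -0.76. The progenitor list had medians of -1.57 and -2.28 in members and -0.80 and -2.62 in lipid-associated macrophages, and the Tom+ libraries held fewer progenitor barcodes (309 and 158) than the Tom- libraries (1634 and 1770). The part of these barcodes in the members' matrix UMIs was not tested. The other 2 genes are not of the matrix. Tppp3, a tubulin-binding protein, was at 104, 223, 110 and 236 CPM with ratios of -1.10 (-1.30 to -0.91) and -1.10 (-1.38 to -0.84), and Vsig8, an immunoglobulin-family membrane protein, at 49.3, 103, 17.3 and 77.4, with -1.07 and -2.16. In lipid-associated macrophages Tppp3 had 0.76 and -0.46 and Vsig8 -0.37 and 0.01.

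**Figure D5:**
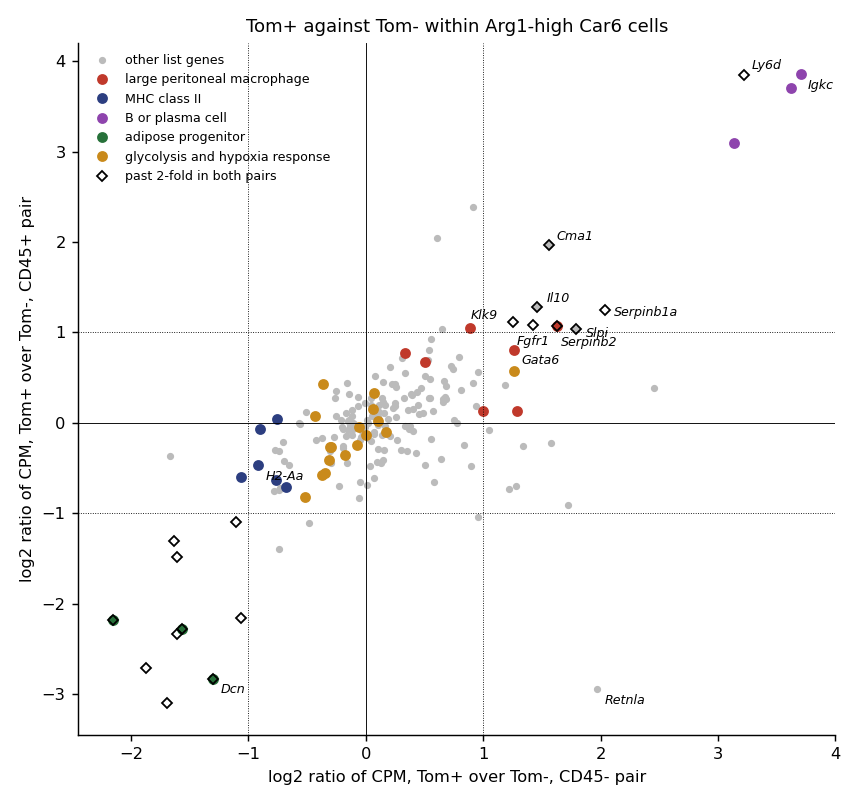
Log2 ratio of Tom+ to Tom- members in the pair labelled CD45- (x axis) and in the pair labelled CD45+ (y axis), for list genes (grey, with 5 lists in colour) and, as diamonds, the 18 named genes past 2-fold in both pairs. Large peritoneal macrophage genes lie above 0 on both axes, progenitor genes below 0 on both, and Retnla at 1.97 and -2.95.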

How the data were processed

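The authors aligned the reads with Cell Ranger 3.0.2 to mm10 extended with a tdTomato sequence (per the labels and file headers) and deposited, for each of 4 libraries, whole-number UMI counts for each gene in each barcode, not normalized. In the study, cells were compared by a Wilcoxon test over cells, which was not used here because cells of 1 library are not replicates.

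From these counts, barcodes were filtered, members and comparison populations were chosen by UMI thresholds, and UMIs were summed per population and library over 31054 features. CPM is the sum of a gene's UMIs scaled by all UMIs of the sum, with exact Poisson intervals at 95% confidence. Populations were compared with edgeR 4.0.16 (R 4.3.3, TMM size factors, library block) and, as an alternative, DESeq2 1.42.0. Scrublet in scanpy 1.11.5 scored doublets, marking the highest 0.8% of barcodes per 1000 barcodes of a library. Shares were thinned to 5000 UMIs per cell, leaving out shallower cells. The members, gene lists and alternatives were chosen with earlier results of these data known. Named genes were the 15 higher and 10 lower with the largest smaller difference from both macrophage populations (at least 50 CPM in 1 of them), up to 10 higher and 10 lower in both Tom pairs (8 and 10 qualified), and list genes. Mitochondrial, ribosomal, predicted, immunoglobulin and rule genes were left out of this naming. The fits and calculations were first tested on simulated data. All p-values measure the spread of a difference from library to library that is left after the block, estimated partly from all genes together. The libraries are different sorts rather than replicates and may come from the same mice. Alternatives covered thresholds, doublets, scaling, the block, tools and leaving out each library.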

Additional observations from a re-analysis of the deposited data

Results flagged for a closer look

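Retnla, a secreted protein of alternatively activated macrophages, had log2 ratios of Tom+ to Tom- members of opposite sign in the 2 pairs, 1.97 in the pair labelled CD45- and -2.95 in the pair labelled CD45+. Its levels were 120, 30.6, 8.67 and 66.9 CPM, with the pair labelled CD45- first and Tom+ before Tom-. The difference between the pairs was not tested, as each group was 1 library. A single member held 73.3%, 37.3%, 50.0% and 79.5% of the Retnla UMIs of its library.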

How the results depend on the processing

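The labels carry no replicate numbers. With the CD45 label as the replicate block over all 4 libraries, a test chosen after seeing the data, 59 genes were higher and 55 lower in Tom+, against 15 and 10 past 2-fold in both pairs, and more genes were tested (9933 against 5516). The genes past 2-fold between Tom+ and Tom- moved with the minimum level: at 5 CPM, 171 were higher and 145 lower in the pair labelled CD45-, 183 and 316 in the pair labelled CD45+, and 35 and 58 in both, and at 50 CPM 20 and 8, 17 and 13, and 8 and 4. Shares of members were 4.99%, 6.84%, 4.95% and 7.12% with no requirement on Car6, and 1.78%, 2.95%, 1.80% and 3.30% with barcodes kept from 500 genes and up to 20% mitochondrial share. With an Arg1 threshold of 20 per 10000 the share in CD45- Tom- was 3.84%. With resident cells above the Arg1 threshold left out, an alternative chosen after seeing the data, 389 genes were higher than in resident macrophages. Leaving out each library in turn gave 187 to 245 genes higher and 274 to 362 lower than in resident macrophages, 790 to 867 and 769 to 845 than in lipid-associated macrophages, and 653 to 1033 and 579 to 839 than in monocytes. DESeq2 gave 217 and 363, 826 and 801, and 864 and 860. Retnla, which was not called against lipid-associated macrophages (log2 0.56), ranged from -0.0032 without the library CD45- Tom+ to 1.06 without CD45+ Tom+, and the cause was not tested. Of the 130 alternative values of the main counts and shares, 105 stayed within their limits, and of 1311 for single genes 1236 were counted as unchanged. For a ratio of Tom+ to Tom-, unchanged meant a value inside the counting interval of the main ratio. With 1 library per group, no ratio within a pair has a replicate error, and CD45+ Tom+ held 55 members.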

Other observations

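Arg1-high cells without Car6 were also present. In 93, 96, 43 and 125 barcodes of the 4 libraries, Arg1 passed the threshold with at least 2 Olr1 UMIs and no Car6 UMI. Their median depth was 18862, 16539.5, 12780 and 16531 UMIs, below that of the members in each library, and whether they are the same cells with Car6 missed was not tested. Il1b was at 253, 757, 385 and 911 CPM in these barcodes, above the members in each library. Thbs1, at 259, 862, 280 and 705 CPM, was above the members in the Tom- libraries only. Chil3, at 49.3, 281.5, 98.9 and 237 CPM, was above the members in CD45- Tom- only. F10, at 86.8, 187, 87.1 and 168 CPM, was slightly above the members in the Tom- libraries and below them in the Tom+ libraries. Trem1 (61.6, 125, 56.1 and 108) was below the members in each library, but close to them in CD45- Tom-. These genes thus did not set the members apart from such barcodes in every library. AA467197 (253, 378, 329 and 368), Slpi (377, 967, 608 and 832) and Klk8 (13.4, 24.5, 17.7 and 24.8) were below the members in each library.

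Growth factor, protease inhibitor and complement genes were mixed in members. Gdf15, a stress-induced cytokine, was at 36.7, 16.1, 30.4 and 22.8 CPM against 62.4 to 193 in resident and 155 to 253 in lipid-associated macrophages, with log2 differences of -2.08 and -3.08 (edgeR adjusted p = 4.82e-05 and 1.66e-09). Mmp14, a membrane collagenase, was at 164, 212, 165 and 185 CPM, with log2 differences of 1.10 and 1.80, and Timp1, a metalloprotease inhibitor, was 1.39 and 1.97 higher. Tgfb1 was at 308, 293, 261 and 280 CPM, with log2 differences of 0.67 and 0.06, under the 2-fold limit. Complement C3 was at 143, 239, 122 and 205 CPM, 1.73 higher than in lipid-associated macrophages and not called against resident macrophages (-0.58). Cdkn1a (p21, a cyclin-dependent kinase inhibitor) was at 198, 191, 234 and 222 CPM, with log2 differences of 0.24 and 0.59, under the 2-fold limit. Ccl24, an eosinophil-attracting chemokine, was at 260, 107, 87.6 and 143 CPM, 2.79 higher than in lipid-associated macrophages (edgeR adjusted p = 0.000314) and not called against resident ones (0.98, adjusted p = 0.41).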
